A study of Mus musculus with 8 samples.

Results

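The 37 genes described here encode parts of the actin cytoskeleton and of focal adhesions. They were chosen as a module by name, with earlier results of these data known. Every probeset whose single gene symbol was one of the 37 names was taken. Of the 37 genes, 36 were measured, with 37 probesets among the 34760 of the table, and Ptk2 was not analysed here. They are 36 of the 19937 genes tested. By role they fell into 9 contractile genes of the smooth muscle type (Acta2, Actg2, Tagln, Cnn1, Myl9, Mylk, Cald1, Tpm1 and Tpm2) and 27 genes that most cells use. The latter were 8 crosslinkers and motors, 13 adhesion adaptors, and 6 genes of filament turnover or of the link between actin and the membrane.

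RNA came from the NMuMG line, epithelial cells of the mouse mammary gland. One line carried a control vector and the other a vector with major satellite sequences, the tandem repeat next to mouse centromeres. Both vectors had been stably transfected, and the labels do not say whether a line was 1 clone or a pool. Each line was measured at 0 h and after 8 h with TGFbeta. The 8 arrays make 4 groups of line and time, with 2 arrays a group.

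Actin filaments are bundled by alpha-actinins and filamins, pulled on by myosin II, and tied to integrins through focal adhesions, where talin, vinculin, paxillin and zyxin gather. Tension on these links and the amount of unpolymerised actin set the activity of the transcription cofactors MRTF and YAP, and MRTF with its partner SRF switches on many of the same cytoskeletal genes. In NMuMG cells TGFbeta is a standard inducer of an epithelial-mesenchymal transition, in which cortical actin is replaced by stress fibres, and smooth muscle actin, encoded by Acta2, is widely used as a marker of contractile cells that arise in such transitions.

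MRTF acts through SRF at the CArG box, a stretch of A and T between a pair of C and a pair of G, so this motif was looked for in the promoters of the genes. RefSeq promoter windows on GRCm38.p6, which reach from 250 bases before to 50 bases after a transcript's start, were given for 31 of the 36 genes (38 windows). A CArG box lay in the windows of 4 of the 31 genes (12.9%), and in 488 of all 27025 genes with a window (1.81%). The 4 stretches are shown because they carry that motif, in capitals, each 5′ to 3′ on the strand of the gene and all before the start.
Cnn2: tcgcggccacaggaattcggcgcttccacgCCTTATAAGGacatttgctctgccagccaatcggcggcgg
Lima1: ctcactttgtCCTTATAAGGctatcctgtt
Myl9: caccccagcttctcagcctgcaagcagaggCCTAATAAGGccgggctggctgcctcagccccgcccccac
Vcl: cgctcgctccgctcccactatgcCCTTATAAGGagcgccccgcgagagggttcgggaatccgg
They lie at chr10:79988514-79988583 (plus strand) for Cnn2, chr15:99820177-99820206 (minus strand) for Lima1, chr2:156775273-156775342 (plus strand) for Myl9 and chr14:20929148-20929210 (plus strand) for Vcl. The box began 56, 47, 161 and 227 bases before the start in that order. The Lima1 stretch is inside the annotated span of the gene, ahead of a start that is not the outermost one. The pattern of the motif is its own reverse complement, so each box was found on both strands. Vcl rose, Lima1 fell, and Cnn2 and Myl9 did not pass in the average TGFbeta response described further on. A CATTCC motif, which TEAD factors, the partners of YAP, can bind, was found on either strand in 11 of 31 genes (35.5%) and in 16.6% of all genes. By that average response, it was in 4 of 12 genes that rose (33.3%) and 1 of 4 that fell (25.0%). Among those that did not pass it was in 6 of 15 (40.0%). A CAGACA motif, which Smad proteins can bind, was found in 5 of 31 genes (16.1%) and in 23.6% of all genes. These are matches of letters, which show no binding. Only exact matches were counted, so a box with a changed letter, or one outside the windows, would be missed. Tagln and Actg2 were among the genes without a window.

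The titles carry 1 of 2 codes, called code 1 and code 2 here, each on 1 array of every group. The labels do not say what a code marks. Array medians over all probesets were 7.72 to 7.76 in the 4 code 1 arrays and 7.88 to 7.92 in the 4 code 2 arrays. Over the 19937 genes tested the order was reversed, with medians of 8.19 to 8.23 in code 1 and 8.14 to 8.15 in code 2. Values are log2 throughout. Of the 36 genes, 34 were higher in code 1 (94.4%, against 62.1% of all genes), with a median difference between the codes of 0.29, against 0.08 over all genes. Differences were fitted with the title code as a term, which compares arrays of the same code, and the outcome without that term is given beside the counts. TGFbeta targets used as a check of the treatment, Thbs1, Skil, Smad7 and Pmepa1, all rose (2.64 ± 0.18, 1.31 ± 0.06, 1.20 ± 0.07 and 0.89 ± 0.07, SE, average of both lines, adjusted p from limma between 2.13e-06 and 3.37e-05), though Skil did not pass without the code (limma adjusted p = 0.0638). The major satellite transcript itself was not analysed here. The labels do not say that the arrays of a group were separate cultures, so the p-values speak only of the spread from array to array, which may be technical.

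The first question was which of these genes changed within 8 h of TGFbeta, and whether the same ones did in both lines. The largest rises were those of Pdlim7 and Zyx, which encode LIM-domain proteins of adhesions and came to 2.29-fold and 2.09-fold their untreated level in control vector cells and 2.22-fold and 1.95-fold in major satellite cells. Ezr, Lima1, Mylk and Lasp1 fell in both lines, Ezr to a level 1.94-fold and 1.99-fold lower. Of the smooth muscle type genes, Cald1 rose and Mylk fell in both lines, while Tpm1 and Cnn1 did not pass.

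In control vector cells, 14 of the 36 genes passed (adjusted p under 0.05), 10 higher and 4 lower, which is 38.9% of them against 14.6% of all genes (6.92% higher and 7.63% lower). In major satellite cells, 13 passed, 9 higher and 4 lower, which is 36.1% against 15.3% (6.89% higher and 8.38% lower). In the average response of both lines, 18 passed, 14 higher and 4 lower (50%, against 24.3%). The share that rose in the average was 38.9% against 11.2% of all genes, and the share that fell was 11.1% against 13.1%. The genes were chosen with earlier results of these data known, so shares above the background describe the list and do not test it. The median log2 difference of the 36 genes was 0.13 in control vector cells and 0.15 in major satellite cells, against 0.01 and 0.03 over all genes.

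These counts depend on the title code. Without it, Lima1 alone of the 36 passed in each line (1.07% of all genes in control vector cells and 1.09% in major satellite cells), and 7 passed in the average response (Cald1, Ezr, Lima1, Msn, Mylk, Palld and Pdlim7, against 4.83% of all genes). With the code kept, fewer of the 36 passed in a line without the second untreated or the second treated array of that line. A fit without 1 array has 2 residual degrees of freedom, against 3 with all arrays. The share over all genes in such fits is not given here, so the drop is not shown to be particular to the 36. The same 7 genes, Cald1, Ezr, Lima1, Mylk, Palld, Pdlim7 and Zyx, passed in each line whichever of the 8 arrays was left out.

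The calls of the lines overlapped in 12 genes (Actn1, Cald1, Ezr, Lasp1, Lima1, Msn, Myh9, Mylk, Palld, Pdlim7, Tln1 and Zyx), which is 85.7% of the calls in control vector cells and 92.3% of those in major satellite cells. Over all genes, 2230 passed in both lines, which is 76.9% and 73.3% of the calls of the lines in that order. The difference between these shares was not tested. Both lines were fitted together with a shared error for each gene, so the overlap is not one of independent calls. Acta2 and Pxn passed in control vector cells alone, Ilk in major satellite cells alone, and Csrp1, Tagln and Vcl in the average alone. The other 18 genes passed neither in a line nor in the average. For 11 of the 36 genes (30.6%), all 4 treated arrays lay above or all lay below all 4 untreated arrays, 7 above and 4 below, whatever the code, against 14.8% of all genes. That share, too, belongs to a list chosen with earlier results known.

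**Figure D1:**
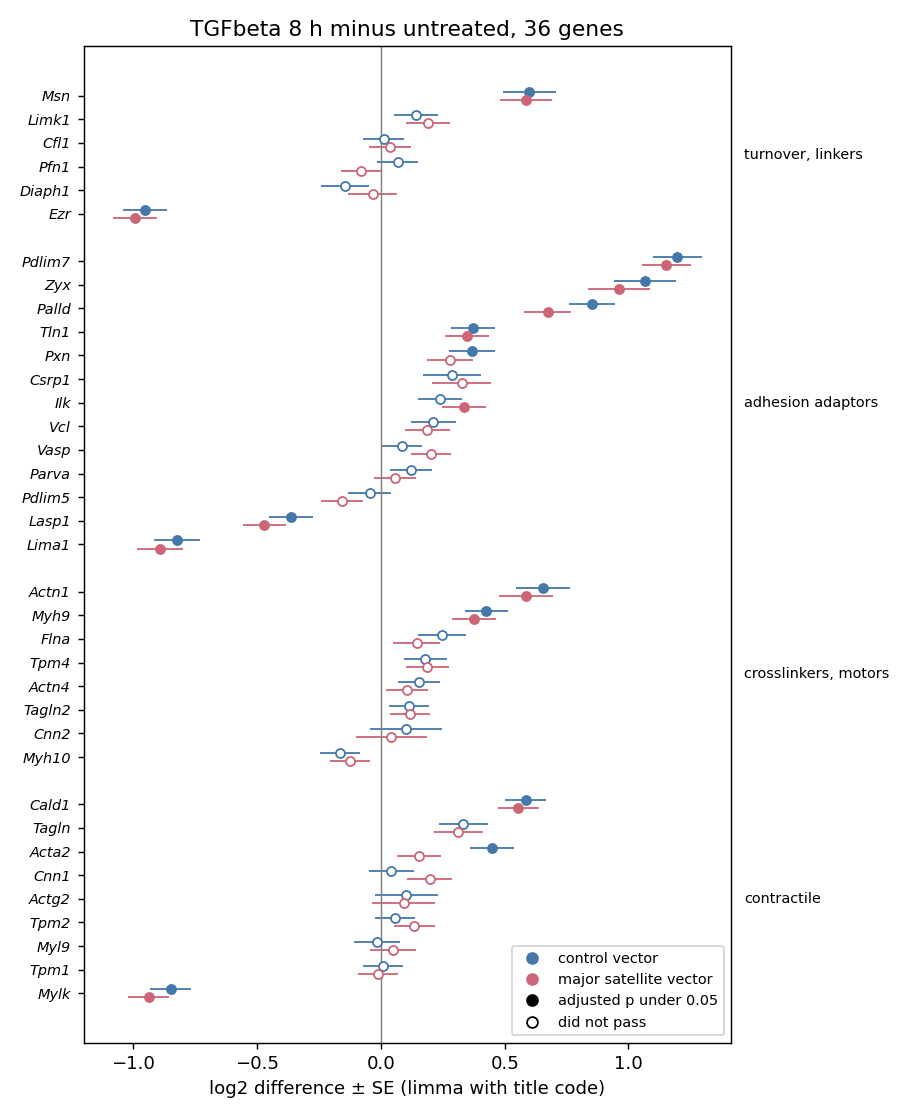
Log2 difference between TGFbeta at 8 h and untreated cells for each of the 36 genes, by role, in control vector and major satellite vector cells. Points are limma estimates with the title code as a term, bars are the standard error, and filled points passed at an adjusted p under 0.05. Pdlim7 (1.20 and 1.15) and Zyx (1.07 and 0.96) lie farthest to the right, Ezr (-0.95 and -0.99) and Mylk (-0.85 and -0.94) farthest to the left.

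Of the 13 adhesion adaptors, 8 rose, 2 fell and 3 did not pass in the average response. Over all genes 11.2% rose and 13.1% fell, so the 2 falls lie near the background. Pdlim7, a PDZ and LIM domain protein of stress fibres, stood at 10.94 (code 1) and 10.36 (code 2) in untreated control vector cells and at 11.98 and 11.71 after TGFbeta. In major satellite cells it stood at 10.82 and 10.37 untreated and at 11.91 and 11.59 treated. All 4 treated arrays were above all 4 untreated ones, and the code 2 array was the lower one in every group. Pdlim7 rose by 1.20 ± 0.10 (SE, limma adjusted p = 9.83e-05) in control vector cells and by 1.15 ± 0.10 (limma adjusted p = 0.000132) in major satellite cells.

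Zyx encodes zyxin, which moves to strained actin filaments and recruits actin assembly factors there. Its level was 10.95 and 10.05 in untreated control vector cells and 11.74 and 11.40 after TGFbeta. In major satellite cells it was 10.73 and 10.15, then 11.65 and 11.14. The treated and untreated arrays did not overlap, and the code 2 array was the lower one in every group. Zyx rose by 1.07 ± 0.13 (limma adjusted p = 0.000596) in control vector cells and by 0.96 ± 0.13 (limma adjusted p = 0.00108) in major satellite cells. Without the code its average rise of 1.01 did not pass (limma adjusted p = 0.085).

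Palld encodes palladin, a scaffold that binds alpha-actinin and bundles actin. It stood at 10.27 and 10.31, then 11.24 and 11.05 with TGFbeta, in control vector cells, and at 10.33 and 10.11, then 11.00 and 10.79, in major satellite cells. Treated and untreated arrays were separate, and the codes nearly coincided in untreated control vector cells. The rise was 0.85 ± 0.09 (limma adjusted p = 0.000419) in the former line and 0.67 ± 0.09 (limma adjusted p = 0.00149) in the latter.

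The other 5 adaptors that rose had smaller differences. Tln1 encodes talin, which couples integrins to actin, and rose by 0.37 ± 0.09 and 0.35 ± 0.09 in control vector and major satellite cells (limma adjusted p = 0.0218 and 0.0284). Its levels overlapped, at 11.50 and 10.88, then 11.76 and 11.36, in control vector cells and 11.40 and 10.86, then 11.77 and 11.19, in major satellite cells. The treated array was the higher one within each code and line. The scaffold gene Pxn (paxillin) rose by 0.37 ± 0.09 in control vector cells (limma adjusted p = 0.0272) and was 0.28 ± 0.09 higher in major satellite cells, which did not pass (limma adjusted p = 0.0762). Ilk, a pseudokinase that joins integrins to parvins, rose by 0.34 ± 0.09 in major satellite cells (limma adjusted p = 0.0349) and was 0.24 ± 0.09 higher in control vector cells (limma adjusted p = 0.125).

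Csrp1, a LIM protein that binds alpha-actinin and zyxin, and Vcl, which encodes vinculin and has one of the CArG boxes shown, passed in the average alone. Csrp1 was higher after TGFbeta within both codes of both lines (0.31 and 0.26 in control vector cells, 0.29 and 0.36 in major satellite cells), an average rise of 0.31 ± 0.08 (limma adjusted p = 0.0261). Vcl was higher by 0.13 and 0.29, and by 0.13 and 0.25, an average rise of 0.20 ± 0.06 (limma adjusted p = 0.0486). Neither call held up in every fit with an array left out. Csrp1 did not pass without the second untreated or the first treated control vector array, or without the first untreated or the second treated major satellite array (0.25, 0.24, 0.26 and 0.23, adjusted p between 0.102 and 0.122). Vcl passed only without the first untreated control vector array or the first treated major satellite array, with adjusted p between 0.109 and 0.197 without any of the other 6.

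Single arrays also decided the calls of Tln1, Pxn and Ilk in a line. In control vector cells Tln1 was 0.43, 0.32 and 0.28 higher without the first untreated, the second untreated or the second treated array (limma adjusted p between 0.058 and 0.247). In major satellite cells it was 0.32 to 0.37 higher without any 1 of the 4 arrays of that line (limma adjusted p between 0.0982 and 0.19). Pxn did not pass in control vector cells without any 1 of its 4 arrays (0.34 to 0.40, limma adjusted p between 0.122 and 0.181). Ilk did not pass in major satellite cells without any 1 of the 4 arrays of that line (0.29 to 0.38, limma adjusted p between 0.0639 and 0.191) or without either treated control vector array (0.34, limma adjusted p = 0.0537 for both). Without the second treated control vector array the average response of Ilk was 0.27 (limma adjusted p = 0.0506, against 0.00927 with all arrays).

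Lima1 and Lasp1 were the adaptors that fell. Lima1 encodes EPLIN, which crosslinks actin and links it to cadherin junctions, and one of its starts has a CArG box. It stood at 11.63 and 11.62, then 10.90 and 10.69, in control vector cells, and at 11.65 and 11.67, then 10.86 and 10.67, in major satellite cells. The 4 untreated arrays lay close together, and all treated arrays were lower. Lima1 fell by 0.83 ± 0.09 (limma adjusted p = 0.000476) and 0.89 ± 0.09 (limma adjusted p = 0.000338), and it was the 1 gene of the 36 that also passed in both lines without the code.

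Lasp1, an actin-binding LIM and SH3 protein of adhesions, stood at 12.81 and 12.46, then 12.34 and 12.19, in control vector cells. In major satellite cells it stood at 12.72 and 12.50, then 12.29 and 11.99. The highest treated array (12.34) was below the lowest untreated one (12.46). Lasp1 fell by 0.36 ± 0.09 (limma adjusted p = 0.023) and 0.47 ± 0.09 (limma adjusted p = 0.0067). In control vector cells the call was lost without any 1 of the 4 arrays of that line (-0.43 to -0.30, limma adjusted p between 0.0733 and 0.182), and in major satellite cells without the second untreated or the second treated array (-0.44 in both cases, limma adjusted p = 0.0835 and 0.0584).

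Vasp, Parva and Pdlim5 did not pass in any of these comparisons. Vasp, which speeds up filament elongation, ranged from 9.88 to 10.57 over the 8 arrays, Parva, a partner of Ilk, from 12.53 to 12.89, and Pdlim5 from 11.52 to 11.78.

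**Figure D2:**
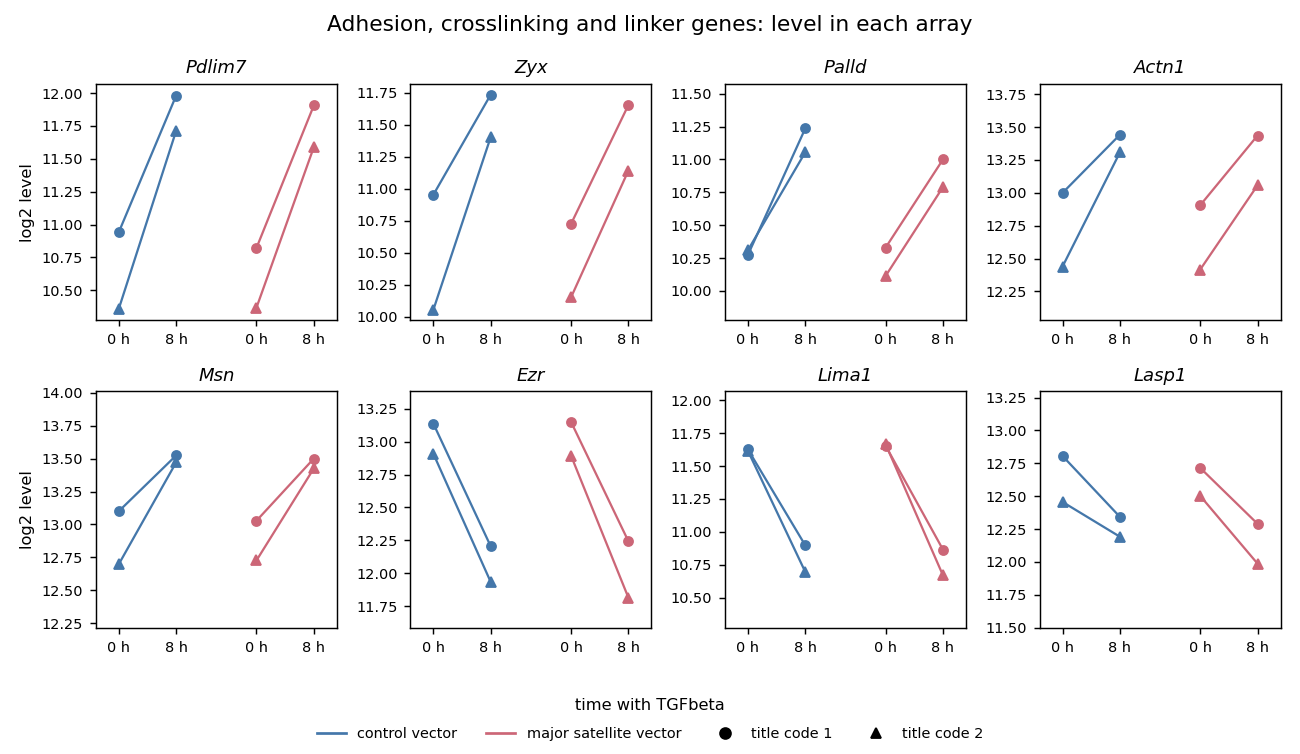
Log2 level in each of the 8 arrays for 8 genes outside the smooth muscle type group, before and after 8 h of TGFbeta, in control vector cells (blue) and major satellite vector cells (red). Circles are code 1, triangles are code 2, lines join arrays of the same code, and each panel has its own vertical axis. The lines of Pdlim7, Zyx, Palld, Actn1 and Msn go up and those of Ezr, Lima1 and Lasp1 go down in every pair.

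Of the 8 crosslinkers and motors, Actn1 and Myh9 rose in both lines and the other 6 did not pass. In the average response 2 of the 8 passed, near the share over all genes (24.3%). Both were rises, and 11.2% of all genes rose. Actn1 encodes alpha-actinin 1, the main crosslinker of stress fibres. It stood at 13.00 and 12.44, then 13.44 and 13.31, in control vector cells, and at 12.91 and 12.42, then 13.44 and 13.06, in major satellite cells. All treated arrays were above 13.00, the highest untreated one. Actn1 rose by 0.66 ± 0.11 (limma adjusted p = 0.00405) and 0.59 ± 0.11 (limma adjusted p = 0.00698). It lost its call in control vector cells without the second untreated or the second treated array of that line (0.54 and 0.48, limma adjusted p = 0.0598 and 0.0564), and in major satellite cells likewise (0.52 and 0.58, limma adjusted p = 0.0875 and 0.0603).

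Myh9 encodes the heavy chain of non-muscle myosin IIA. It stood at 12.96 and 12.65, then 13.28 and 13.19, in control vector cells, and at 12.87 and 12.66, then 13.22 and 13.05, in major satellite cells. The lowest treated array (13.05) was above the highest untreated one (12.96). Myh9 rose by 0.43 ± 0.09 (limma adjusted p = 0.0113) and 0.37 ± 0.09 (limma adjusted p = 0.0202). A second probeset of Myh9 was higher after TGFbeta in all 4 pairs as well, by 0.50 and 1.0 in control vector cells and by 0.51 and 0.59 in major satellite cells. The call in control vector cells was lost without the second untreated or the second treated array (0.35 and 0.36, limma adjusted p = 0.133 and 0.143), and in major satellite cells without any 1 of the 4 arrays of that line (0.36 to 0.39, limma adjusted p between 0.0561 and 0.153).

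The 6 that did not pass were Actn4 (13.36 to 13.71 over the 8 arrays), the filamin gene Flna (12.77 to 13.18), Tagln2 (12.85 to 13.36), Tpm4 (12.90 to 13.51), Cnn2 (11.04 to 12.31) and the myosin IIB gene Myh10 (7.61 to 8.26). In Cnn2, which has one of the CArG boxes shown, the mean of the code 1 arrays was 0.96 above that of the code 2 arrays.

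Among the 6 genes of filament turnover and of the link to the membrane, Msn rose and Ezr fell in both lines. In the average response 1 rise and 1 fall of 6 lie near the shares over all genes (11.2% and 13.1%). Ezrin and moesin, the products of Ezr and Msn, are close relatives that tie actin to the plasma membrane, ezrin mainly in the microvilli of epithelia. Msn stood at 13.10 and 12.70, then 13.52 and 13.47, in control vector cells, and at 13.03 and 12.73, then 13.50 and 13.43, in major satellite cells. Ezr stood at 13.14 and 12.91, then 12.20 and 11.93, in control vector cells, and at 13.15 and 12.89, then 12.24 and 11.81, in major satellite cells. For both genes treated and untreated arrays did not overlap.

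Msn rose by 0.60 ± 0.11 (limma adjusted p = 0.00521) and 0.59 ± 0.11 (limma adjusted p = 0.00576). Ezr fell by 0.95 ± 0.09 (limma adjusted p = 0.000172) and 0.99 ± 0.09 (limma adjusted p = 0.000154). The change in Msn less the change in Ezr was 1.36 and 1.75 in the code 1 and code 2 pairs of control vector cells and 1.38 and 1.78 in those of major satellite cells, a mean of 1.57 in log2. This quantity was formed after both values had been seen and has no test of its own. The Msn calls were lost without the second untreated or the second treated array of the line concerned (0.47 and 0.50, limma adjusted p = 0.0738 and 0.0792, in control vector cells, 0.52 and 0.50, limma adjusted p = 0.0772 and 0.0671, in major satellite cells).

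The other 4 did not pass. Pfn1 and Cfl1, which encode profilin and cofilin, the proteins that feed and sever filaments, ranged from 13.76 to 13.88 and from 13.73 to 13.92. Limk1, the kinase that inactivates cofilin, ranged from 8.74 to 9.49 and the formin gene Diaph1 from 9.70 to 10.05.

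The smooth muscle type genes were then set beside the other 27. Of the 9, 3 rose in the average response (Cald1, Acta2 and Tagln), 1 fell (Mylk) and 5 did not pass, with a median log2 difference of 0.10. Of the 27, 11 rose, 3 fell and 13 did not pass, with a median of 0.17, and over all genes the median was 0.03. By line, the smooth muscle type genes had 2 rises and 1 fall in control vector cells and 1 rise and 1 fall in major satellite cells, and the other 27 had 8 rises and 3 falls in both lines. Of all genes, 6.92% rose and 7.63% fell in control vector cells, 6.89% and 8.38% in major satellite cells, and 11.2% and 13.1% in the average, so the 1 rise and 1 fall of 9 in major satellite cells lie near the background. These are descriptions of lists of unequal size, without a test between them.

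Cald1 encodes caldesmon, which binds actin and restrains myosin and has a form outside muscle. It stood at 11.36 and 11.54, then 11.95 and 12.12, in control vector cells, and at 11.27 and 11.46, then 11.77 and 12.07, in major satellite cells. The groups did not overlap, and here the code 2 arrays were the higher ones. Cald1 rose by 0.58 ± 0.08 (limma adjusted p = 0.00177) and 0.56 ± 0.08 (limma adjusted p = 0.00237).

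Mylk encodes myosin light chain kinase, the calcium-dependent switch of myosin II. It stood at 9.83 and 10.09, then 8.97 and 9.25, in control vector cells, and at 9.86 and 10.05, then 8.92 and 9.12, in major satellite cells. Every treated array was lower than every untreated one, again with code 2 above code 1. Mylk fell by 0.85 ± 0.08 (limma adjusted p = 0.000218) and 0.94 ± 0.08 (limma adjusted p = 0.000145), a level 1.80-fold and 1.92-fold lower.

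Acta2 stood at 7.70 and 7.07, then 8.26 and 7.41, in control vector cells, and at 7.72 and 7.09, then 7.91 and 7.20, in major satellite cells. Its levels followed the code more than the treatment, so that the treated code 2 arrays were below the untreated code 1 arrays, and within a code the treated array was the higher one. Acta2 rose by 0.45 ± 0.09 (limma adjusted p = 0.00945) in control vector cells and was 0.15 ± 0.09 higher in major satellite cells, which did not pass (limma adjusted p = 0.297). The call in control vector cells was lost without the first untreated, the second untreated or the first treated array of that line (0.40, 0.49 and 0.36, limma adjusted p = 0.0749, 0.0515 and 0.1), and without the title code (limma adjusted p = 1).

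Tagln encodes transgelin, an actin-binding protein and a common early marker of contractile differentiation. It stood at 7.30 and 7.22, then 7.75 and 7.44, in control vector cells, and at 7.32 and 6.98, then 7.67 and 7.26, in major satellite cells. The treated arrays were higher within each code, and across codes the groups overlapped. It was 0.33 ± 0.10 higher (limma adjusted p = 0.0553) and 0.31 ± 0.10 higher (limma adjusted p = 0.0661), and passed in the average alone, a rise of 0.32 ± 0.07 (limma adjusted p = 0.0084).

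Cnn1, which encodes the calponin of differentiated smooth muscle, stood at 7.47 and 6.78, then 7.39 and 6.95, in control vector cells, and at 7.26 and 6.77, then 7.47 and 6.96, in major satellite cells. Its differences of 0.04 ± 0.09 and 0.20 ± 0.09 did not pass (limma adjusted p = 0.849 and 0.195), and the treated and untreated arrays overlapped. Tpm1, an alpha-tropomyosin gene with forms in and outside muscle, stood at 12.80 and 12.51, then 12.79 and 12.54, in control vector cells, and at 12.71 and 12.49, then 12.70 and 12.47, in major satellite cells. Its differences of 0.01 ± 0.08 and -0.01 ± 0.08 did not pass (limma adjusted p = 0.967 and 0.941), and the 95% confidence interval of the average ran from -0.13 to 0.13.

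The values of Acta2, Actg2, Cnn1, Myl9, Tagln and Tpm2 all lay between 6.67 and 8.26, and those of Cald1, Mylk and Tpm1 between 8.92 and 12.80. Levels of different probesets cannot be compared on these arrays, and whether a probeset was above background was not tested. Actg2, Myl9 and Tpm2 did not pass, with ranges of 6.67 to 7.18, 6.73 to 7.19 and 6.93 to 7.53 over the 8 arrays.

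**Figure D3:**
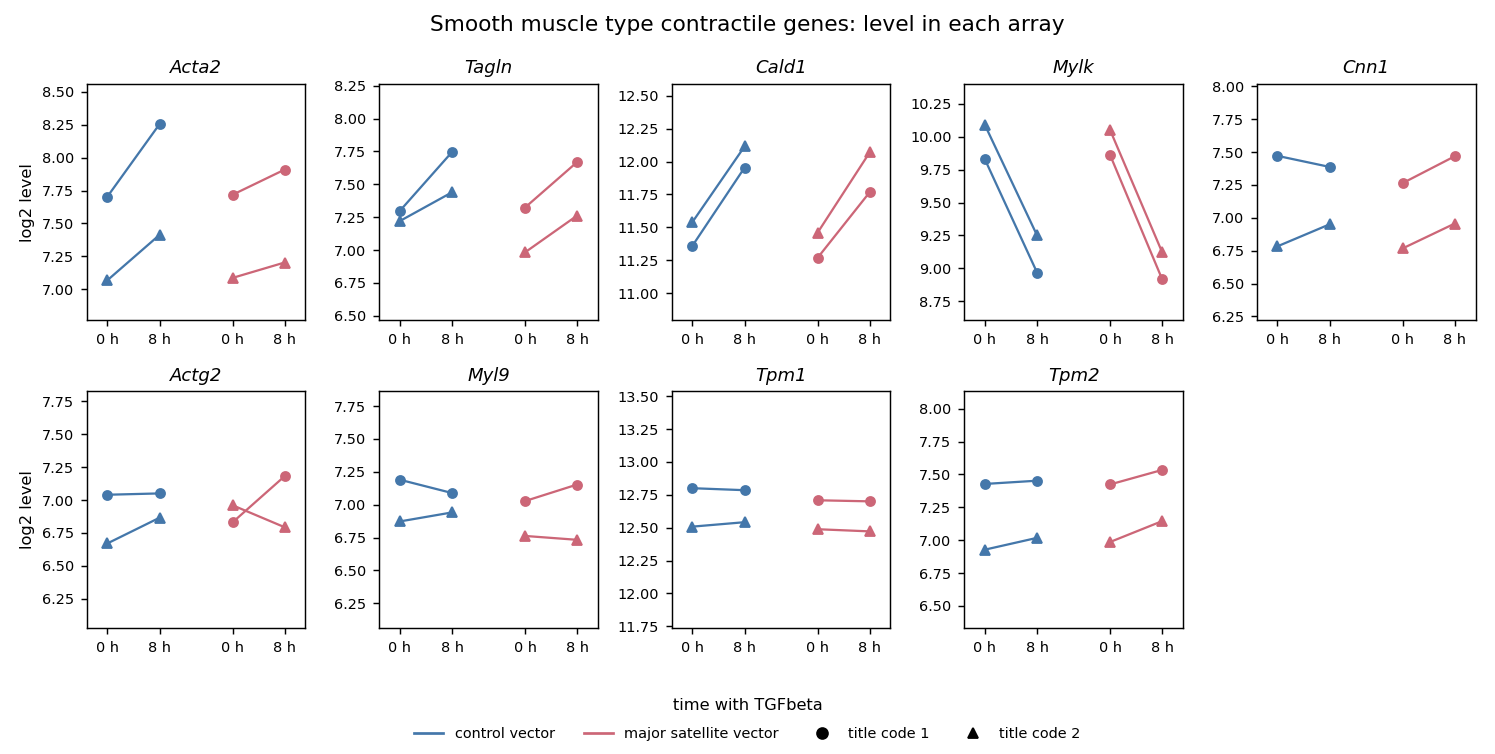
Log2 level in each of the 8 arrays for the 9 smooth muscle type contractile genes, before and after 8 h of TGFbeta, in control vector cells (blue) and major satellite vector cells (red). Circles are code 1, triangles are code 2, lines join arrays of the same code, and each panel has its own vertical axis. Cald1 goes up and Mylk down in all 4 pairs, while for Acta2 the codes lie farther apart than the treated and untreated arrays of a code.

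Markers of other cell types were measured beside these genes, because in bulk RNA fewer cells of a type and less RNA per cell cannot be told apart. In the average response 24.3% of all genes passed, 11.2% higher and 13.1% lower. Of 6 further smooth muscle markers, Smtn (0.84 ± 0.07) and Lmod1 (0.31 ± 0.07) rose in that response (limma adjusted p = 3.15e-05 and 0.00835). Myh11, Des, Synpo2 and Myocd, of which Myh11 and Myocd are the most specific, did not pass (0.05, 0.14, 0.04 and 0.05). The log2 of their summed level was 10.82 to 11.48 in untreated and 11.59 to 12.09 in treated control vector cells, and 10.78 to 11.44 and 11.45 to 12.02 in major satellite cells. That sum mostly follows Smtn, whose values were 10.13 to 11.79, while the other 5 lay between 6.30 and 8.02. Levels of different probesets cannot be compared here, so the sums of this and the next lists only follow a list from array to array. Whether a marker's probeset was above background was not tested. Of 4 myoepithelial markers Krt14 rose (0.44 ± 0.10, limma adjusted p = 0.0121), and 1 of 4 is near the share of all genes that passed. In control vector cells alone Krt14 did not pass. It stood at 7.82 and 7.72, then 8.15 and 7.92, in that line, and at 7.68 and 7.60, then 8.035 and 8.47, in major satellite cells. The summed levels of the 4 markers were 9.40 to 9.70 and 9.50 to 9.81 in control vector cells and 9.50 to 9.68 and 9.81 to 9.84 in major satellite cells.

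Of 7 fibroblast markers, Pdgfra, Col1a1 and Pdgfrb rose (0.66 ± 0.07, 0.47 ± 0.07 and 0.29 ± 0.06, limma adjusted p between 0.000162 and 0.00778), while 11.2% of all genes rose. Their summed levels were 10.12 to 10.40 and 10.45 to 10.58 in control vector cells and 10.15 to 10.33 and 10.55 to 10.63 in major satellite cells. Of 4 endothelial markers Cdh5 rose (0.30 ± 0.06, limma adjusted p = 0.00783), with a summed level of 8.87 to 9.32 over the 8 arrays. That 1 of 4 passed is near the share over all genes (24.3%). Of 4 immune markers 0 passed, with a summed level of 9.40 to 9.81. Of 7 epithelial markers Krt19 fell (-0.74 ± 0.06) and Epcam and Cldn3 rose (0.39 ± 0.09 and 0.31 ± 0.09), with a summed level of 15.60 to 15.81. Epcam lay at only 6.53 to 7.16. Cdh1, at 12.72 to 13.16, did not pass (-0.12 ± 0.06, limma adjusted p = 0.241), nor did Krt8, Krt18 and Cldn7. The defining keratin gene Krt8 was at 14.19 to 14.42 in the 8 arrays. Without the title code Krt19 and Pdgfra passed among all these markers. The part of any of them in the changes of the 36 genes was not tested.

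Other genes of the pathway, given from 5 related lists, moved in both directions in the average response, in which 11.2% of all genes rose and 13.1% fell. Of 10 genes of the SRF, MRTF and YAP branch, 3 rose and 0 fell. Mrtfa, the actin-sensing cofactor itself, rose by 0.74 ± 0.06 (limma adjusted p = 3.29e-05), and Ccn2 and Ccn1, secreted proteins known as YAP targets, by 0.98 ± 0.09 and 0.93 ± 0.21 (limma adjusted p = 5.81e-05 and 0.00972). The Ccn1 difference was 0.33 within code 1 and 1.52 within code 2. Of 22 other adaptors, 8 rose and 4 fell. Sorbs2, a vinculin-binding scaffold, fell by 2.01 ± 0.06 (limma adjusted p = 4.22e-07), while Tns1, a tensin of fibrillar adhesions, rose by 1.19 ± 0.08, Parvb, a partner of Ilk, by 1.01 ± 0.09 and Pdlim1, a relative of Pdlim7, by 0.73 ± 0.09 (limma adjusted p between 1.04e-05 and 0.000335).

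Of 9 capping and severing genes, 3 rose and 0 fell, Gsn (gelsolin) by 0.60 ± 0.06, Tmsb4x (thymosin beta-4, which holds actin monomers) by 0.40 ± 0.08 and Capzb by 0.27 ± 0.06 (limma adjusted p = 0.000124, 0.00509 and 0.00794). Of 8 actin isoforms and myosins, Cnn3 rose by 0.26 ± 0.07 and the myosin IIC gene Myh14 fell by 0.20 ± 0.06 (limma adjusted p = 0.0326 and 0.0319). Of 7 Arp2/3 subunits and nucleators, Wasl, the activator N-WASP, fell by 0.38 ± 0.07 (limma adjusted p = 0.00287) and 0 rose. The counts of the last 2 lists are near the shares over all genes. Without the title code, Mrtfa and Ccn2 rose, Tns1 rose and Sorbs2 fell, and 0 passed in the other 3 lists.

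The next question was whether the response to TGFbeta differed between the lines. None of the 36 genes passed in the limma test of that difference, as none of the 19937 genes did (0%), with or without the title code. At an unadjusted p under 0.05 there was 1 of the 36, against 658 of all genes. Differences between the responses ran from -0.29 ± 0.13 (Acta2) to 0.16 ± 0.13 (Cnn1), and 33 of the 36 confidence intervals lay within 0.5 of 0. For Acta2 the major satellite response was below the control vector response by 0.36 in code 1 and 0.23 in code 2, with an interval from -0.58 to -0.01 (limma adjusted p = 0.999). So the pass of Acta2 and Pxn in one line and of Ilk in the other is not shown to be a difference between the lines. The log2 differences of the lines are drawn from separate arrays, 4 in each line. The fit was joint, with the title code term and the error of each gene shared between the lines. The calls in the lines are therefore not independent of each other.

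The last question was whether the vector with major satellite sequences itself changed these genes. In untreated cells, 0 of the 36 passed in limma and 0 had an unadjusted p under 0.05. Of all 19937 genes, 0.0301% passed and 654 had an unadjusted p under 0.05. The differences, major satellite less control, ran from -0.17 (Vasp) to 0.11 (Myh10). All 36 confidence intervals lay within 0.5 of 0, with the lowest bound at -0.40 (Csrp1) and the highest at 0.40 (Cnn2). Acta2 differed by 0.02 ± 0.09, Tagln by -0.11 ± 0.10, Cnn1 by -0.11 ± 0.09 and Tpm1 by -0.06 ± 0.08 (limma adjusted p = 1 for each).

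After TGFbeta, 0 of the 36 passed in limma, against 0.0301% of all genes. At an unadjusted p under 0.05 there were 2 of the 36, near the share over all genes (1298 of 19937). These were Acta2, at -0.28 ± 0.09 (-0.35 in code 1 and -0.21 in code 2, interval -0.48 to -0.08), and Palld, at -0.25 ± 0.09 (-0.24 and -0.27, interval -0.46 to -0.04). Both had a limma adjusted p = 0.752, and Palld was named here after its values had been seen. Tagln differed by -0.13 ± 0.10, Cnn1 by 0.04 ± 0.09 and Tpm1 by -0.08 ± 0.08 (limma adjusted p between 0.817 and 0.928). Again all 36 intervals lay within 0.5 of 0. Of the 36 differences 26 were below 0, as were 26 in untreated cells, and the share over all genes is not given here. The median of the 36 was -0.07 after TGFbeta and -0.03 in untreated cells, against 0.008 and -0.0014 over all genes. In untreated cells it was -0.07 within code 1 and 0.02 within code 2. The sign was the same in both codes for 15 of the 36 in untreated cells and for 25 after TGFbeta, against 10084 and 10865 of the 19937 genes.

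Averaged over both treatments, 0 of the 36 passed in limma, against 0.0853% of all genes, with differences from -0.16 (Palld) to 0.13 (Myh10). There was 1 unadjusted limma p under 0.05 among the 36 (Palld, 0.0381), against 1071 among the 19937 genes. Acta2 differed by -0.13 ± 0.06, Tagln by -0.12 ± 0.07, Cnn1 by -0.03 ± 0.06 and Tpm1 by -0.07 ± 0.06 (limma adjusted p between 0.874 and 0.953). Without the title code, 0 of the 36 passed in any of the 3 vector comparisons and 0 had an unadjusted p under 0.05, while 0.00502% of all genes passed in untreated cells, 0.00502% after TGFbeta and 0.01% in the average.

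**Figure D4:**
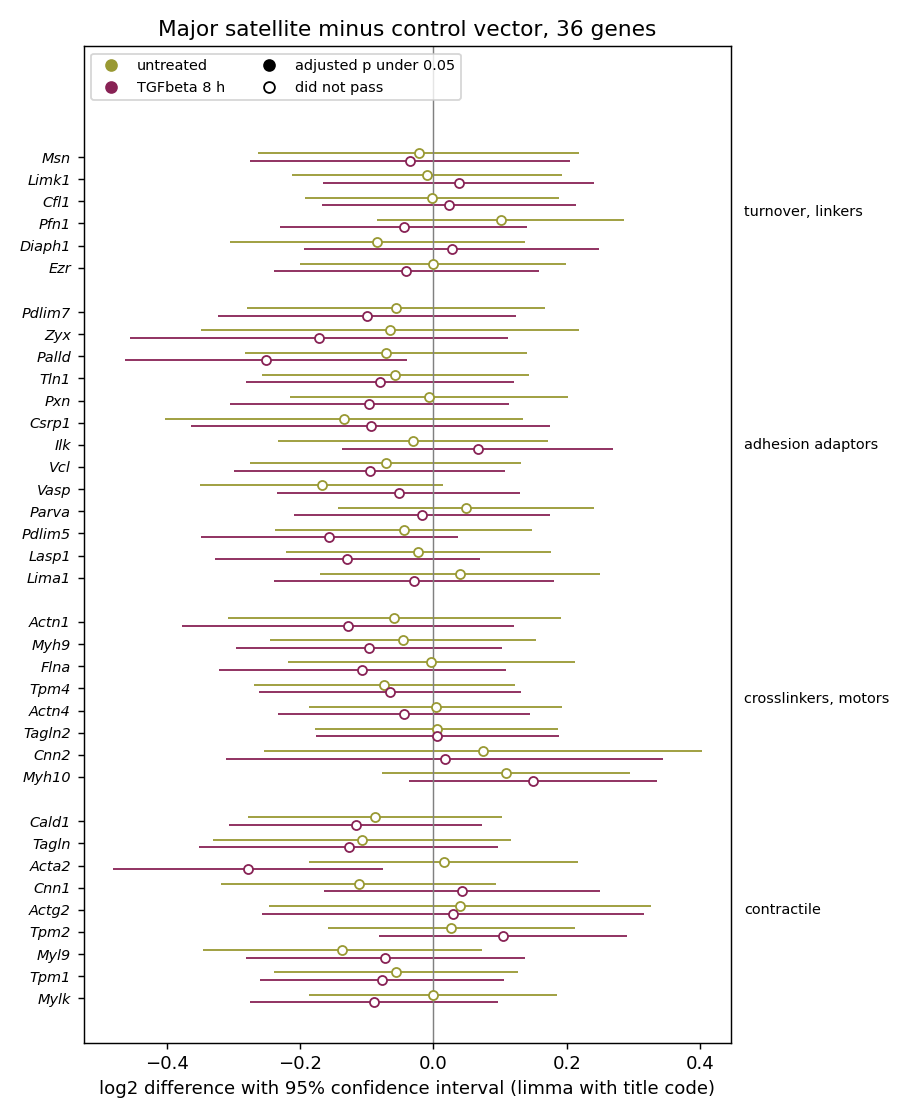
Log2 difference between major satellite vector cells and control vector cells for each of the 36 genes, by role, untreated and after 8 h of TGFbeta. Points are limma estimates with the title code as a term, bars are 95% confidence intervals, and open points did not pass at an adjusted p under 0.05. No point is filled, and only the treated intervals of Acta2 (-0.48 to -0.08) and Palld (-0.46 to -0.04) leave 0 outside.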

How the data were processed

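The authors deposited 1 log2 value per probeset and array, on an RMA scale. The submitters' processing notes name RMA and limma. Versions, roles and the genome build are not given in the sources used here. Total RNA had been labelled for Affymetrix arrays, per the labels' protocols. Probesets with 1 symbol in the platform's probe table were kept (21640 of 34760), symbols were updated through RefSeq's GRCm38.p6 annotation (19855 genes, 82 kept as given), and of the 954 genes with several probesets the one with the highest mean was used, which left 19937 genes.

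Values of all 8 arrays went into limma 3.58.1 (R 4.3.3; functions lmFit, contrasts.fit and eBayes), with 1 mean per group and the title code as a term (3 residual degrees of freedom, 4 without it). Tests were two-sided, with Benjamini-Hochberg adjustment over 19937 genes in each of the 7 comparisons. Errors are standard errors of log2 differences. The title codes were used to pair arrays because the rule for this module compares arrays by them. Deviations from the group means correlated between arrays of the same code at r = 0.758 to 0.874 across genes, which are not independent replicates, and 2 codes are too few to establish the pairing. The fit was also run on simulated data into which a title code effect had been put. That run cannot show whether the codes mark real pairs or whether arrays were separate cultures. No filter on low values was set. Alternatives were another choice of probeset, a minimum mean of 6, array medians subtracted, quantile normalization, eBayes with trend and robust, no title code, and leaving out each array. The number of arrays limits the precision.

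The members, role groups, related lists and markers were chosen with earlier results of these data known. Named with a test were members that passed, with Acta2, Tagln, Cnn1 and Tpm1 whatever their p, and at most 4 passing genes of a related list by smallest p. Ptk2 was not analysed here, and 1 related list and 1 treatment marker are not reported here.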

Additional observations from a re-analysis of the deposited data

How the results depend on the processing

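With no replicate block (no title code in the model), the members passing fell from 14 to 1 in control vector cells, from 13 to 1 in major satellite cells and from 18 to 7 in the average response, and 36 gene values no longer passed. Leaving out 1 array gave 8 to 14 and 7 to 14 members in the lines and 16 to 18 in the average. In the other 4 comparisons 0 members passed under every setting run. Of 980 gene values under the alternatives, 871 kept their direction and side of the threshold, 88 no longer passed (51 of them with 1 array left out) and 4 newly passed, all of Tagln. With array medians subtracted, Vcl did not pass in the average (0.19, adjusted p = 0.0653).

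Direction turned in 17 gene values, 0 of them of a called result. With quantile normalization the average Tpm1 difference was 0.0031. The other 16 came from leaving out 1 array. Over the arrays left out, Cnn1 ran from -0.062 to 0.14 and Tpm1 from -0.0215 to 0.04 in control vector cells, and Tpm1 from -0.0296 to 0.005 in major satellite cells and from -0.017 to 0.014 in the average. The difference between responses ran from -0.16 to 0.12 for Tagln and from -0.052 to 0.0092 for Tpm1. The vector difference ran from -0.033 to 0.0635 for Acta2 and from -0.24 to 0.0298 for Tagln in untreated cells, from -0.021 to 0.11 for Cnn1 after TGFbeta, and from -0.086 to 0.017 for Cnn1 in the average. The cause was not tested.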
